A study of Mus musculus with 64 samples.

Results

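Clone K is one of 8 mouse pancreatic tumor cell lines, and its response to fibroblasts was measured by comparing all 4 of its coculture libraries with all 4 of its mono-culture libraries, 8 of the 64 libraries in the series. The members were the libraries whose labels name clone K, and no measured value was used to choose them. Clones E, H, K, M, N, T and V were subcloned from the cells of 1 tumor of a KPC mouse, which carries a heterozygous Trp53 R172H allele and Pdx1-Cre, a recombinase driven by a promoter active in the pancreas. KPC1, the eighth line, is labeled as mouse pancreatic tumor cells without a genotype, and the strain of all lines is given as C57BL/6 mixed. The coculture groups (K_co and the like) are tumor cells sorted by their GFP after 48 h with fibroblasts, and the mono-culture groups (K_mono and the like) grew without them. Every line is 1 clone or line, so the 4 libraries of a group are repeats of that line. The labels do not say which fibroblasts were used, whether the mono-cultures were sorted, or whether the 4 libraries came from separate cultures, so p-values measure only the spread between these libraries.

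In pancreatic cancer, fibroblasts surround the tumor cells and exchange growth factors, matrix, cytokines and metabolites with them. Tumor cells read these signals through receptor kinases, TGF-beta receptors, integrins and cytokine receptors, and the outcome is seen in programs such as the cell cycle, the contractile and YAP program of spread cells, the interferon response and the ATF4 program of the integrated stress response.

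Totals of the 8 clone K libraries lay between 14752872 and 16070068 counts, inside the range of the other 56 libraries (11178721 to 21333683), and all 64 libraries were most correlated with a library of their own line and culture. Ductal epithelial markers (15 genes) summed to 2700 to 3650 CPM (counts scaled to a library total of 1000000) in the mono-culture and 2830 to 4110 CPM in the coculture libraries of clone K, most of it the keratins Krt8 and Krt18. Sox9 and Krt19 were expressed in both cultures, but Epcam, Cldn7 and Krt20 had only 22, 8 and 1 counts over the 4 K_mono libraries, so that some defining epithelial markers were at or near 0 in clone K. Immune and endothelial markers (10 genes) summed to at most 14.7 CPM, nearly all of it Cd68. Fibroblast markers (24 genes) summed to 1510 to 2100 CPM in mono-culture and to 2220, 2380, 3690 and 3640 CPM in coculture libraries 1 to 4. Clone K on its own expressed Fbln2, Col5a1 and the mesenchymal factors Prrx1 and Twist2, but Dcn, Fap, Thy1 and Pdpn had no count in any K_mono library. In the coculture libraries of the 7 other lines the marker sum was between 1030 and 3630 CPM. In such bulk libraries, more cells of a type and more RNA per cell cannot be told apart. The library numbers in the labels fall into 2 series of index numbers. All K_mono libraries and coculture libraries 1 and 3 were in the second series, with coculture libraries 2 and 4 in the first. Clone K was the only line with no mono-culture library in the first series, where E, N and V had all 4 of theirs. Comparisons of clone K with the other lines are thus unbalanced for index series.

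Coculture changed 2894 genes in clone K, 20.5% of the 14134 genes tested. Of these, 1761 rose (12.5%) and 1133 fell (8.02%) at an adjusted p-value under 0.1 in edgeR's quasi-likelihood test of all 64 libraries. This was the smallest number among the 8 lines, which ranged up to 8790 in clone T. Called rises (1761 against 2831 to 4540) and called falls (1133 against 2441 to 4449) were both fewest in clone K. At least 2-fold, 859 genes rose (6.08%) and 176 fell (1.25%) in clone K, whereas between 580 and 1622 genes fell at least 2-fold in each of the other lines. The counts of 2-fold rises in the other lines, 559 to 1539, lay on both sides of that of clone K. The coculture values lay all above the mono-culture values in clone K for 1570 genes (11.1%) and all below for 1158 (8.19%). Within the second index series alone, 4 K_mono against 2 K_co libraries, 1318 genes were called, 777 higher and 541 lower. Without coculture libraries 3 and 4, which held the most fibroblast marker counts, 1173 were called, 799 higher and 374 lower. The shares of all genes set beside lists below come from all 64 libraries and do not apply to these 2 smaller sets.

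**Figure D1:**
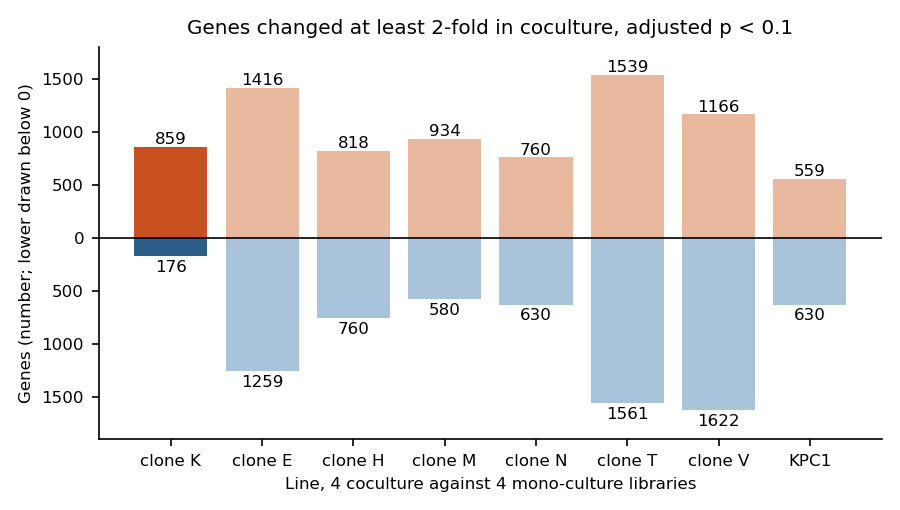
Number of genes called higher (above 0) and lower (below 0) in coculture with a change of at least 2-fold, for clone K and the 7 other lines, each from 4 coculture and 4 mono-culture libraries. The bar for falls is shortest in clone K, with 176 genes against 580 to 1622 elsewhere.

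Over all 14134 genes, none of which is a replicate, the response of clone K correlated with that of every other line, from an r of 0.46 with clone V to 0.72 with clone M. Each line has its own mono-cultures, so these responses share no control library. Fibroblast transcripts such as Col1a2 and Postn rose in every line and are among these genes. Their part in r and in the rises shared between lines was not tested. Of the genes called in clone K, 81.7% moved in the direction of the mean of the other lines. Of the 536 genes that rose in all 7 other lines, 285 (53.2%) also rose in clone K, and the median log2 fold change of the 536 was 0.39 in clone K and 0.88 over the others. Of the 269 genes that fell in all 7 others, 77 (28.6%) fell in clone K, with medians of −0.27 and −0.94. Both shares are above the background of 12.5% and 8.02% of genes that rose or fell.

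Collagen genes, the collagen cross-linking enzyme gene Lox and the interferon-induced Ifitm3 and Bst2 were among the genes that rose in clone K with the smallest p-values. Col1a2, a chain of type I collagen, was at 0.454, 0.345, 0.134 and 0.278 CPM in the K_mono libraries 1 to 4 and at 90.2, 73.9, 335 and 389 CPM in the K_co libraries. The groups did not overlap, and coculture libraries 3 and 4 were the highest, as they were for Col1a1 (134, 128, 560 and 536 CPM) and Lox (28.7, 49.7, 211 and 299 CPM). Col1a2 rose by 9.47 ± 0.68 (SE) on the log2 scale (adjusted p = 1.62e-15), and the mean of the other lines was 9.71. Dcn, which encodes the proteoglycan decorin, had 674 counts over the K_co libraries and none over the K_mono libraries. Its level was thus at least 219-fold higher against a floor of 3 counts over the group, and that of Thy1, a fibroblast surface protein, at least 121-fold higher. Postn, encoding periostin, had 3 counts in mono-culture and 4565 in coculture, a ratio of 1480 with an exact 95% counting interval of 507 to 7190. Of the 22 fibroblast markers tested, 16 rose and 1, Twist2, fell in clone K, beside 12.5% and 8.02% of all genes. Their median log2 fold change was 3.43 in clone K, within the range of 2.29 to 5.34 in the other lines and against 0.008 over all genes tested. Whether these transcripts were made by clone K cells or by fibroblasts within the sorted fraction was not tested. The marker sum was higher in all 4 K_co libraries than in any K_mono library, and this holds beside every rise described below.

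Genes of the cell cycle rose in clone K. All 33 mitosis genes were called higher, beside 12.5% of all genes, with a median log2 fold change of 1.81 against 0.008 over all genes. The median over the same genes was between 0.42 and 0.98 in each of the other lines. Top2a, the topoisomerase that untangles chromosomes, was at 14, 19.4, 15.6 and 34.1 CPM in the K_mono libraries and at 108, 79.9, 64.9 and 193 CPM in the K_co libraries, so that the groups did not overlap. It rose by 2.43 ± 0.27 on the log2 scale (adjusted p = 1.05e-09 in edgeR), and the mean of the other lines was 0.69. Ube2c, the ubiquitin-conjugating enzyme of the anaphase-promoting complex, was at 3.5, 4, 3.02 and 10 CPM and rose to 39.9, 20.9, 15.9 and 47.5 CPM. Its log2 fold change of 2.60 ± 0.34 compared with a mean of 0.63 in the other lines. Kif2c, a microtubule-depolymerizing kinesin, rose by 2.63 ± 0.32 and Bub1, a spindle checkpoint kinase, by 2.68 ± 0.34. Library 4 was the highest of its group for all 4 of these genes in both cultures.

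Clone K started from the lowest level of this program. The median over the 33 mitosis genes was 2.50 ± 0.60 (SD, n = 4) log2 CPM in K_mono, with library values of 2.20, 2.30, 2.11 and 3.4. In the mono-cultures of the other lines the group means were between 4.22 in clone M and 6.09 in KPC1. In coculture clone K reached 4.47 ± 0.62 log2 CPM, with values of 4.53, 4.23, 3.83 and 5.29, still below the mean of every other line in coculture (5.24 to 6.57). For Top2a the mono-culture means of the other lines, 104 to 447 CPM, were also above every K_mono library.

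**Figure D2:**
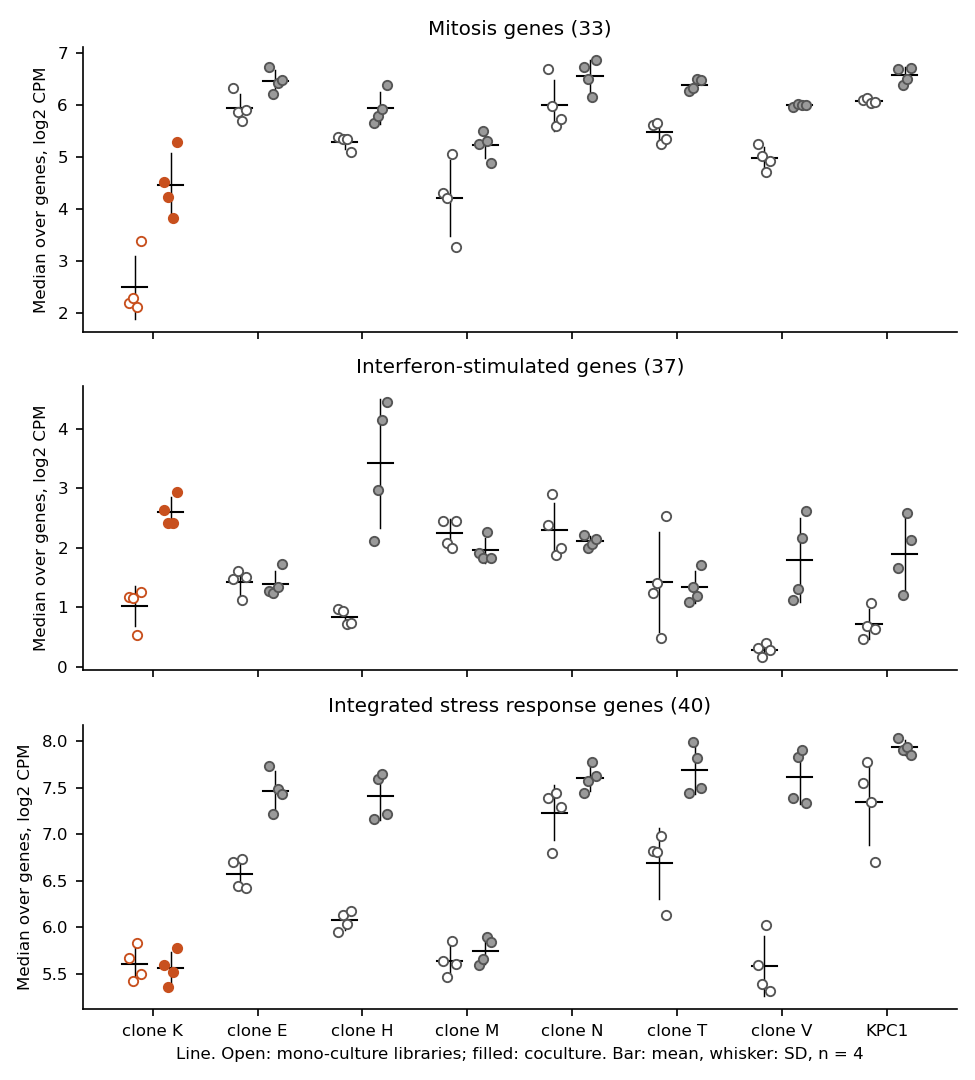
Median level in log2 CPM over the genes of 3 lists in each of the 64 libraries, by line, with open points for mono-culture and filled points for coculture, bars for the mean and whiskers for the SD (n = 4). The mitosis genes of clone K rise from 2.50 to 4.47, its interferon-stimulated genes from 1.03 to 2.60, and its integrated stress response genes stay at 5.61 and 5.56 while they rise in most other lines.

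DNA replication genes rose with them, 31 of 38 tested, beside 12.5% of all genes. Without coculture libraries 3 and 4, 17 of the 38 rose, where 799 genes rose in all. With all libraries, the median log2 fold change of the 38 was 0.74 in clone K. The median in the other lines was between 0.06 and 0.79, so 1 of them, by this measure, was above clone K. Mcm5, a subunit of the replicative helicase, was at 5.51 to 8.49 CPM in mono-culture and 22.3 to 44.1 CPM in coculture, a rise of 2.15 ± 0.27 (adjusted p = 2.1e-08 in edgeR) against a mean of 0.36 elsewhere. Ccne1, encoding cyclin E1, rose by 2.12 ± 0.27, and the helicase subunit genes Mcm2 and Mcm3 rose by 1.17 ± 0.15 and 1.32 ± 0.19. Ccnd1, encoding cyclin D1, rose from 121, 139, 194 and 323 CPM to 473, 316, 440 and 620 CPM. The K_co and K_mono values of Ccnd1 overlapped.

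Tested against the mean response of the other 7 lines, 4839 genes differed in clone K (34.2% of those tested), 2593 with a higher response (18.3%) and 2246 with a lower one (15.9%). That is the largest such count among the 8 lines, for which it ran from 982 in clone N. The error of this test is the spread between libraries of one line, and it does not cover the spread between lines. In simulated data, every line, clone K included, was given its own deviation per gene of the size of the observed spread. That observed spread also holds the spread between libraries. Nearly all calls of this test then fell on genes with no change added for clone K beyond this deviation. The counts of higher and lower responses given here and for each list therefore describe clone K against this mean, and they are not counts of genes particular to clone K. Of the mitosis genes, 25 of 33 had a higher response in clone K and none had a lower one, and of the DNA replication genes 14 had a higher and 1 had a lower one. The difference for Top2a was 1.73 ± 0.28 (adjusted p = 1.03e-05), for Ube2c 1.97 ± 0.35 (5.12e-05) and for Mcm5 1.79 ± 0.28 (6.77e-06), all from edgeR. Within the second index series, where H, M, T and KPC1 had both cultures, 630 genes differed in all, 329 higher and 301 lower. Of the 33 mitosis genes 6, and of the 38 replication genes 2, had a higher response in clone K there. Without coculture libraries 3 and 4, a higher response was called for 20 mitosis and 5 replication genes. Over all genes, 1810 higher and 1479 lower responses were then called, so the shares of 18.3% and 15.9% do not apply to these 2 smaller sets.

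Promoters of the mitosis genes hold letters that many of them share, and a pair is printed here to show them, with Bub1 beside it as a mitosis gene that has only one of the motifs. The sequences are the 250 bases before the start site from RefSeq (GRCm38.p6), written 5′ to 3′ on the strand of the gene. Capitals mark TTTGAA, the core of the cell cycle genes homology region, and CCAAT, the box bound by NF-Y, each searched on both strands, and an overlap of both motifs was not excluded.
Top2a (chr11:99024190-99024439, minus strand): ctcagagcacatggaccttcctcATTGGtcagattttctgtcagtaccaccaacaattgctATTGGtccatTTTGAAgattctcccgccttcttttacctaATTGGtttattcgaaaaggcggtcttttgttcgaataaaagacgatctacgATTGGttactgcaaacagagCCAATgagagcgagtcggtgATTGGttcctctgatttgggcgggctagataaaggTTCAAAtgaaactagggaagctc
Ube2c (chr2:164769679-164769928, plus strand): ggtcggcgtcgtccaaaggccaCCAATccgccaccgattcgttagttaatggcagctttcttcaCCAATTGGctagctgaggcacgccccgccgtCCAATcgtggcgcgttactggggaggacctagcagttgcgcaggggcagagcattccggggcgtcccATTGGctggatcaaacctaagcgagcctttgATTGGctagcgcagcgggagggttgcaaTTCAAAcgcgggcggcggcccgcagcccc
Bub1 (chr2:127831860-127832109, minus strand): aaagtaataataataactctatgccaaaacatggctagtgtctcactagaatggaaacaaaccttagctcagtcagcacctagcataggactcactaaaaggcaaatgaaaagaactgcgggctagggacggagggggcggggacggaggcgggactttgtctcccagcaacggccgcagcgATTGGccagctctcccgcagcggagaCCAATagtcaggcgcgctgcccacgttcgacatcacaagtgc
Of 33 mitosis genes, 27 had a promoter in the table, taking the first entry per symbol. Over 300 bases, 250 before and 50 after the start, TTTGAA was found in 19 of the 27 (70.4%) and in 11.5% of the 9781 promoters of genes tested here. CCAAT was found in 22 of the 27 (81.5%) and in 39% of those promoters. A match is a run of letters and not a bound site.

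Interferon-stimulated genes also rose. Of 37 tested, 23 rose and none fell in clone K, beside 12.5% and 8.02% of all genes, with a median log2 fold change of 1.86. The medians of the other lines were between 0.14 and 2.44, and 1 of them was above clone K. As library values, the median level over these genes was 1.17, 1.15, 0.53 and 1.25 log2 CPM in K_mono and 2.62, 2.41, 2.42 and 2.94 in K_co. By this measure clones H and V and the KPC1 line rose as well, while E, M, N and T stayed within 0.29 log2 of their mono-cultures. Bst2, or tetherin, which holds budding virus at the cell surface, was at 11.9, 17, 12.5 and 9.39 CPM in K_mono and 66.6, 44.9, 58 and 44.6 CPM in K_co. It rose by 2.08 ± 0.20 (adjusted p = 2.44e-11 in edgeR), which was 1.05 ± 0.20 above the mean of the other lines (adjusted p = 0.000151). Ifitm3, a membrane protein that blocks viral entry, rose from 26.8 to 43.1 CPM across the K_mono libraries to 87.6 to 128 CPM in K_co. Ifit1, which binds viral RNA, was between 0.905 and 1.82 CPM and rose to between 8.97 and 14.9 CPM, a change of 3.09 ± 0.43. The mean of the other lines for Ifit1 was higher, 4.29, and the difference of −1.19 ± 0.51 was called lower in clone K (adjusted p = 0.0755 in edgeR), with a positive sign on both RPKM scales (0.647 and 0.198). Isg15, a ubiquitin-like modifier, rose by 3.90 ± 0.60 and Usp18, the protease that removes it, by 3.29 ± 0.50, both from under 1 CPM to at most 5.13 CPM, and neither differed from the mean of the other lines by the test (0.71 ± 0.73 and 0.16 ± 1.87). Among cytokines, Ccl2, which attracts monocytes, rose from 39.3 ± 12.2 (SD, n = 4) to 133 ± 27.7 CPM without overlap, and Ccl5 rose by 3.81 ± 0.43 from at most 0.348 CPM. Of the list, 12 genes had a higher and 4 a lower response than the mean of the other lines, beside 18.3% and 15.9% of all genes. Within the second index series these counts were 3 and 2.

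For 3 of these genes the promoter is shown, as above, with a pair of GAAA runs that have 2 bases between them, the core of the interferon-stimulated response element, in capitals with those 2 bases. Both strands were searched.
Bst2 (chr8:71537473-71537722, minus strand): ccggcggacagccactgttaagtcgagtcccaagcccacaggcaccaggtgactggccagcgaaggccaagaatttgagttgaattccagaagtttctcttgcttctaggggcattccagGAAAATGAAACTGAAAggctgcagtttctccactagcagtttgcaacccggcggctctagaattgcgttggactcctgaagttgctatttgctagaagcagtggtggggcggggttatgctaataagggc
Ifit1 (chr19:34640639-34640888, plus strand): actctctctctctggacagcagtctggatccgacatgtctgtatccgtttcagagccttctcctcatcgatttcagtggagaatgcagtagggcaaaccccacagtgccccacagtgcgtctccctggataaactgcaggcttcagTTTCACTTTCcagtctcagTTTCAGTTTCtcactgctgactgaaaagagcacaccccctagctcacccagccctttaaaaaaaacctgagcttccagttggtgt
Isg15 (chr4:156200819-156201068, minus strand): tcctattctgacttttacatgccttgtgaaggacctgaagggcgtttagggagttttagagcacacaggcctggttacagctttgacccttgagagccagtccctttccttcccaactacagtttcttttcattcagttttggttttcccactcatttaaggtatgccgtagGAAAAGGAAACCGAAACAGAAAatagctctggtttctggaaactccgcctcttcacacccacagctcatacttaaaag
This motif was found in 17 of the 30 promoters (56.7%) that the table holds for the 37 genes, and in 3% of the 9781 promoters of genes tested.

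Several genes that changed in most lines were not called, or had the other sign, in clone K. Some of them are contractile genes and YAP targets. Ankrd1, a classical YAP target, was at 914, 333, 735 and 377 CPM in K_mono and 558, 459, 521 and 310 CPM in K_co. The groups overlapped, with a log2 change of −0.35 ± 0.27 (adjusted p = 0.438), while Ankrd1 rose in all 7 other lines by a mean of 1.56. The difference of −1.92 ± 0.30 was called (adjusted p = 7.47e-06 in edgeR). The mono-cultures of clone K already held more of this transcript than any other line, whose mono-culture means were between 51 and 250 CPM. Gadd45b, a stress-induced gene (−0.33 ± 0.32 against a mean of 1.65), and Tagln, an actin-binding protein of contractile cells (−0.25 against 2.60), were not called in clone K either and rose in all 7 other lines. Their mono-culture levels in clone K were spread widely, with libraries 1 and 3 above libraries 2 and 4, as for Ankrd1. Tagln is also on the list of fibroblast markers, and the part of fibroblast transcripts in its rise elsewhere was not tested. Of 18 YAP and TAZ targets tested, none rose and 8 fell in clone K (4 in the second index series, 5 without coculture libraries 3 and 4), beside 12.5% and 8.02% of all genes. A lower response than the mean of the others was called for 9 and a higher one for 1, beside 15.9% and 18.3% of all genes. Crim1, a growth factor-binding membrane protein, fell from 436, 231, 423 and 259 CPM to 173, 193, 138 and 120 CPM, without overlap.

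Of 17 TGF-beta targets, 9 fell and 2 rose (7 and 1 in the second index series, 4 and 0 without coculture libraries 3 and 4), beside 8.02% and 12.5% of all genes. Their median log2 fold change was −0.36 in clone K and between −0.54 and 0.29 in the other lines. Smad7, the inhibitor induced by TGF-beta signaling, was at 104, 108, 119 and 104 CPM and fell to 70.9, 64.4, 43.9 and 40.9 CPM, a change of −0.98 ± 0.15 (adjusted p = 1.58e-06 in edgeR). Skil, a repressor of SMAD proteins, fell by 0.70 ± 0.14 on the log2 scale. Of 22 EMT factors and mesenchymal genes, 6 rose and 4 fell (2 and 1 in the second index series, 3 and 1 without coculture libraries 3 and 4), beside 12.5% and 8.02% of all genes. A lower response than the mean of the others was called for 12 and a higher one for 3, beside 15.9% and 18.3% of all genes. In the second index series the latter counts were 5 and 2, and without coculture libraries 3 and 4 they were 7 and 3. Cald1, which encodes the actin-binding protein caldesmon, fell by 0.66 ± 0.12, whereas its mean elsewhere was 0.28. Twist1, a transcription factor of mesenchymal cells, rose from 11.4 to 13.3 CPM across the K_mono libraries to 19.3 to 25.9 CPM. It was one of the 3 with a higher response, by 0.67 ± 0.12 (adjusted p = 8.72e-05 in edgeR).

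**Figure D3:**
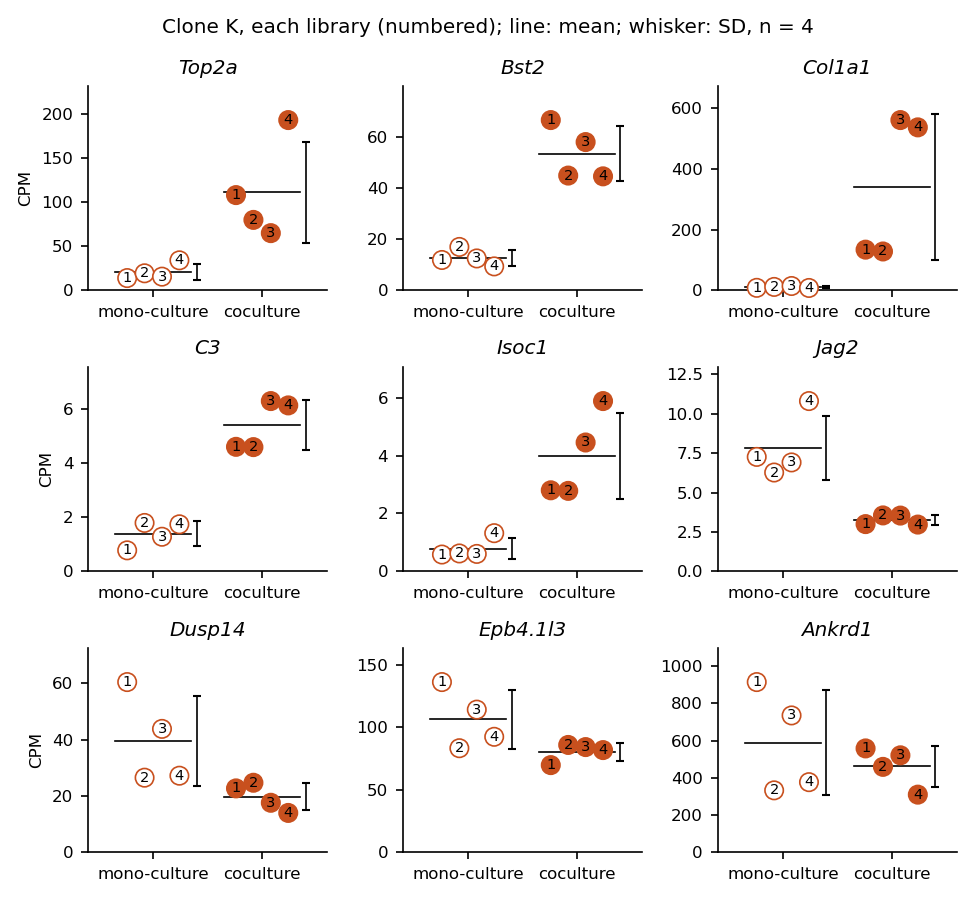
Level in CPM of 9 genes in each clone K library (numbered 1 to 4), open for mono-culture and filled for coculture, with the mean as a line and the SD as a whisker (n = 4). Top2a, Bst2, Col1a1, C3 and Isoc1 are higher and Jag2 and Dusp14 lower in every coculture library, while Epb4.1l3 and Ankrd1 overlap.

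The integrated stress response genes, the ATF4 program that supplies amino acids and their tRNA ligases, were a further group with a small change in clone K. Of 40 tested, 8 rose and none fell in clone K, beside 12.5% and 8.02% of all genes, with a median log2 fold change of 0.25. In the second index series 7 rose, where 777 genes rose in all. Without coculture libraries 3 and 4 only 2 rose, where 799 genes rose in all. The medians of the 7 other lines, from 0.26 to 1.74, were all above that of clone K. Nupr1, a stress-induced chromatin protein, was at 122, 105, 140 and 99.8 CPM in K_mono and 111, 97.2, 95.7 and 98.3 CPM in K_co, and Ddit3, which encodes CHOP, at 47.6, 39.4, 50.8 and 38.5 CPM and 42.8, 34.3, 48.3 and 39.2 CPM. Neither passed the test in clone K, and their mean log2 fold changes in the other lines were 1.21 and 1.54. The response of clone K was lower by 1.43 ± 0.26 for Nupr1 (adjusted p = 7.83e-05) and by 1.64 ± 0.32 for Ddit3 (adjusted p = 0.000167), both from edgeR. Of the list, 22 genes had a lower response and 1 a higher one, beside 15.9% and 18.3% of all genes. Within the second index series 3 had a lower response, and 21 had one without coculture libraries 3 and 4. Psat1, an enzyme of serine synthesis, did rise, from 76.6, 45.6, 71 and 67.6 CPM to 134, 86.5, 106 and 142 CPM. The median response in clone N was 0.26, close to that of clone K. By the median level over the list, clone M also moved little, from 5.64 to 5.75 log2 CPM.

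Of 38 Myc targets, 15 rose in clone K, beside 12.5% of all genes. In the second index series 10 of them rose, where 777 genes rose in all. Without coculture libraries 3 and 4, 2 of them rose, where 799 genes rose in all. A lower response than the mean of the other lines was called for 13 and a higher one for none, beside 15.9% and 18.3% of all genes. The count of lower responses was 0 in the second index series and 10 without coculture libraries 3 and 4. Cad, the enzyme that starts pyrimidine synthesis, rose by 1.10 ± 0.21, whereas the nucleolar protein gene Gnl3 was at 0.11 ± 0.17 against a mean of 0.83. Of 19 p53 targets, 3 rose and 2 fell in clone K, beside 12.5% and 8.02% of all genes, and 1 rose and none fell without coculture libraries 3 and 4. A lower response than the mean of the other lines was called for 9 of them and a higher one for 1, beside 15.9% and 18.3% of all genes. In the second index series these counts were 1 and 0. Plk2, a stress-induced kinase, was at −0.51 ± 0.32 against a mean of 1.46. Among 20 NF-kappaB targets, 4 rose, among them Bcl3 and Nfkbie, and none fell, beside 12.5% and 8.02% of all genes. Of this list 5 had a higher and 3 a lower response than the mean of the other lines, beside 18.3% and 15.9% of all genes. In the second index series these counts were 1 and 0. The difference was 1.25 ± 0.20 for Bcl3 and 0.58 ± 0.18 for Nfkbie. Tnfaip3, the ubiquitin-editing feedback inhibitor, was at −0.24 ± 0.25 in clone K while it rose in all 7 others by a mean of 0.96, and its response was called lower (adjusted p = 0.000686 in edgeR).

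The median change of the cholesterol and fatty acid synthesis genes was −0.24 (log2) in clone K and between −0.10 and −0.82 in the other lines. Of 33 tested, 1 was called lower in clone K, beside 8.02% of all genes. For 13 of the 33, all K_co libraries lay below all K_mono libraries, beside 8.19% of all genes. The median level over the list went from 8.07 ± 0.05 to 7.75 ± 0.11 (SD, n = 4) log2 CPM. With only the clone K libraries in the fit, 12 were called lower. Ebp, a sterol isomerase, was at 113, 143, 135 and 150 CPM in K_mono and 169, 135, 123 and 104 CPM in K_co, with no change called, and fell in all 7 other lines by a mean of 0.91 on the log2 scale. The response of 9 of the 33 was higher in clone K and of none lower, beside 18.3% and 15.9% of all genes. The count of higher responses was 1 in the second index series and 7 without coculture libraries 3 and 4. Of 24 receptors for fibroblast signals, 5 rose and 3 fell in clone K, beside 12.5% and 8.02% of all genes. A higher response than the mean of the others was called for 10 and a lower one for none, beside 18.3% and 15.9% of all genes. In the second index series 2 had a higher response, and without coculture libraries 3 and 4, where 2 rose and none fell, 9 had a higher and 1 a lower one. Egfr, the EGF receptor, was at 86.4, 150, 92.9 and 109 CPM and 108, 159, 146 and 184 CPM, whereas its mean log2 fold change elsewhere was −0.70, and Tgfbr2, the type II TGF-beta receptor, rose by 0.52 ± 0.15. Of the ductal epithelial markers, 4 of 12 tested had a higher response in clone K (none in the second index series) and none a lower one, beside 18.3% and 15.9% of all genes. Krt8, a simple epithelial keratin, was at 0.12 ± 0.18 against a mean of −0.60.

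Genes that changed throughout the other lines but not in clone K were then counted, by a rule made after the values had been seen. It takes genes called in the same direction with a log2 fold change of at least 0.5 in all 7 other lines, at most 0.25 in that direction in clone K, and a difference that was called. Of 250 genes that rose in this way in all 7 others, 28 did not in clone K (11.2%). The same count was 28 of 256 (10.9%) in KPC1 and 17 of 219 (7.76%) in clone V, and at most 6 in each remaining line, so missing rises do not set clone K apart from KPC1. Of 131 that fell in all 7 others, 51 did not in clone K (38.9%). In each of the other lines between 0 and 5 of 29 to 52 such genes were missing, at most 9.62%, in KPC1. For those lines the 7 others include clone K, which had the fewest called falls, so the rule itself leaves them fewer genes to miss. With at least 6 of 7 other lines required, 223 of 464 falls (48.1%) were missing in clone K, and between 0 and 75 were missing in each of the other lines. Pdx1, the transcription factor that specifies the pancreas, is one of the 51, with 48.4, 89.2, 50.9 and 91.2 CPM in K_mono and 55.4, 74.3, 61.4 and 61.7 CPM in K_co. Its log2 fold change was −0.14 ± 0.28, and in the other lines it fell by a mean of 1.41 on the log2 scale. Lifr, the receptor for leukemia inhibitory factor, Cebpd, a transcription factor of acute-phase genes, and Iqgap2, a scaffold protein, were at −0.24, −0.12 and −0.06 in clone K and fell by 1.41, 1.29 and 1.37 elsewhere. These 4 genes were chosen after their values were seen.

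**Figure D4:**
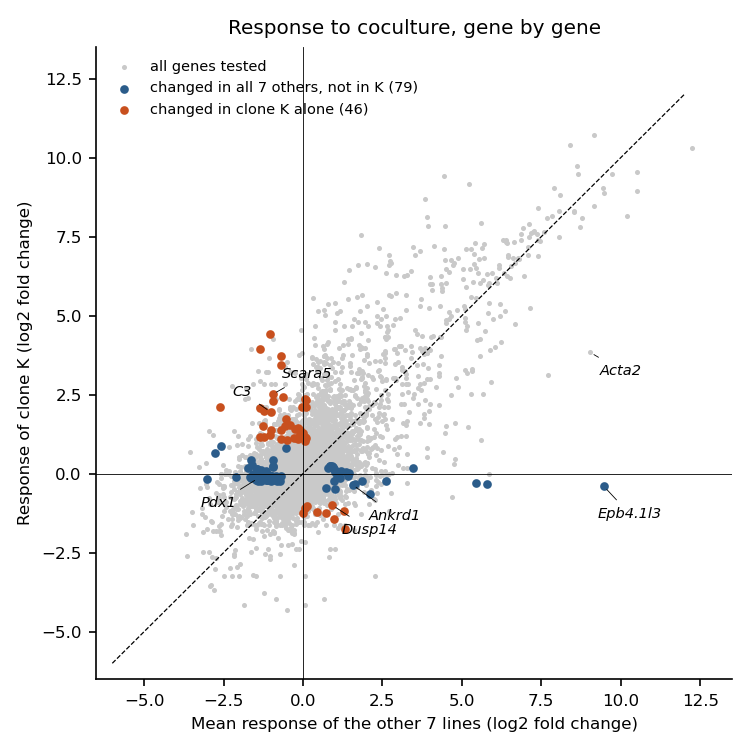
Response of clone K against the mean response of the other 7 lines for 14134 genes, both as log2 fold changes, with the line of equal response dashed. The 46 genes changed in clone K alone and the 79 genes changed in all 7 others but not in clone K, 28 that rose and 51 that fell elsewhere, are marked.

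Genes that changed in clone K alone were those called in clone K with a change of at least 2-fold, called against the mean of the others, and without a log2 fold change over 0.5 of the same sign in any other line. They numbered 46 (0.325% of genes tested), of which 37 rose and 9 fell. The same count was between 3 and 83 in the other lines, so the number itself does not set clone K apart. Without coculture libraries 3 and 4 it was 20, and without coculture library 4 it was 30. Without mono-culture library 2, 15 genes fell in place of 9.

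The levels reached by the 37 rising genes were low. In 24 of them the K_mono mean was under 1 CPM, and in 7 the K_co mean reached 5 CPM. The mono-culture median of the other lines was above the K_mono mean for 36 of the 37, and above the K_co mean for 32. C3, the central complement component (chr17:57203970-57228136, minus strand, GRCm38), was at 0.778, 1.79, 1.28 and 1.74 CPM in K_mono and 4.6, 4.59, 6.29 and 6.13 CPM in K_co, without overlap. It rose by 1.95 ± 0.50 (adjusted p = 0.00403 in edgeR), and in the other lines it fell by a mean of 1.02 on the log2 scale, each of the 7 values being negative. Scara5, a ferritin receptor, was at 0.389, 1.31, 0.537 and 0.974 CPM and rose to 3.87, 2.78, 2.95 and 8.67 CPM, a change of 2.52 ± 0.41 against a mean of −0.95. Enpp2, which encodes autotaxin, the enzyme that makes lysophosphatidic acid, was at 2.66, 5.58, 1.68 and 6.68 CPM and at 7.13, 7.66, 11.3 and 21.1 CPM. Its mono-culture level in the other lines ran from 3.08 to 205 CPM, with a median of 91. Enpp2 was not called without coculture libraries 3 and 4.

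Isoc1, an isochorismatase family member, was at 0.583, 0.62, 0.604 and 1.32 CPM in K_mono and 2.8, 2.78, 4.45 and 5.88 CPM in K_co, a rise of 2.35 ± 0.24 (adjusted p = 2.61e-10 in edgeR). No other line changed it by over 0.36, and their mono-cultures held 6.87 to 20 CPM. Ube2l6, an enzyme that attaches ISG15, and Blmh, a cysteine protease, reached higher levels and were named after their values were seen. Ube2l6 was at 4.47, 7.79, 3.42 and 6.47 CPM in K_mono and 14.9, 11.6, 10.4 and 12.4 CPM in K_co, and Blmh at 2.33, 3.93, 2.42 and 2.92 CPM and 7.53, 7.1, 7.21 and 8.73 CPM. Neither pair of groups overlapped. Prr16, Itih2, Selenbp1, Fetub, Htra3 and Penk rose by 1.16 to 2.07 on the log2 scale, from K_mono means under 4 CPM. Of these 6, Prr16 and Fetub stayed called without coculture libraries 3 and 4, and Itih2 and Selenbp1 did not reach the threshold without library 4.

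Of the 9 falls in clone K alone, 8 were in genes whose K_mono mean was above the mono-culture median of the other lines. Jag2, a Notch ligand and the exception, was at 7.26, 6.27, 6.91 and 10.8 CPM in K_mono and 3, 3.55, 3.54 and 2.97 CPM in K_co, a change of −1.26 ± 0.20 (adjusted p = 5.35e-06 in edgeR) where the other lines had −0.49 to 0.37. Hey1, a Notch target that is not in this group by the rule, fell from 2.98, 3.31, 2.21 and 3.9 CPM to 0.933, 0.975, 0.459 and 1.18 CPM. Nrarp, another Notch target, rose from 3.57 to 7.03 CPM across K_mono to 9.68 to 17.3 CPM, so the Notch genes did not move one way. Pcolce2, which enhances procollagen processing, fell from 36.5, 33.3, 44.7 and 56.8 CPM to 23.6, 18.2, 17.1 and 14.7 CPM, and had a positive log2 fold change in 6 of the 7 other lines. Dusp14, a phosphatase of MAP kinases, fell from 60.4, 26.5, 43.8 and 27.2 CPM to 22.7, 24.7, 17.6 and 14 CPM, where it rose in 6 of the 7 others. Bok, a BCL2 family member, fell by 1.02 ± 0.19 with overlapping groups, and Relt and the adhesion receptor gene Selp fell by 1.24 ± 0.35 and 1.44 ± 0.44. Selp in K_mono rested on library 4, at 12.6 CPM against 3.09 to 3.89 in the other libraries, and it was not called without that library or without coculture libraries 3 and 4.

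Among the largest falls by p-value without that restriction were Nt5dc3, from 174 to 238 CPM across K_mono to 78.3 to 110 CPM, the GTPase activator gene Chn2 and the endocytic adaptor gene Hip1r. Their log2 changes were −1.04 ± 0.14, −1.04 ± 0.15 and −1.39 ± 0.21. Csrp1, a protein of actin filaments, fell by 1.10 ± 0.17, and Lims2, a focal adhesion protein, by 2.24 ± 0.35 with values of 9.4, 10.3, 13.3 and 26 CPM falling to 3.47, 4.46, 1.7 and 2.85 CPM.

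**Figure D5:**
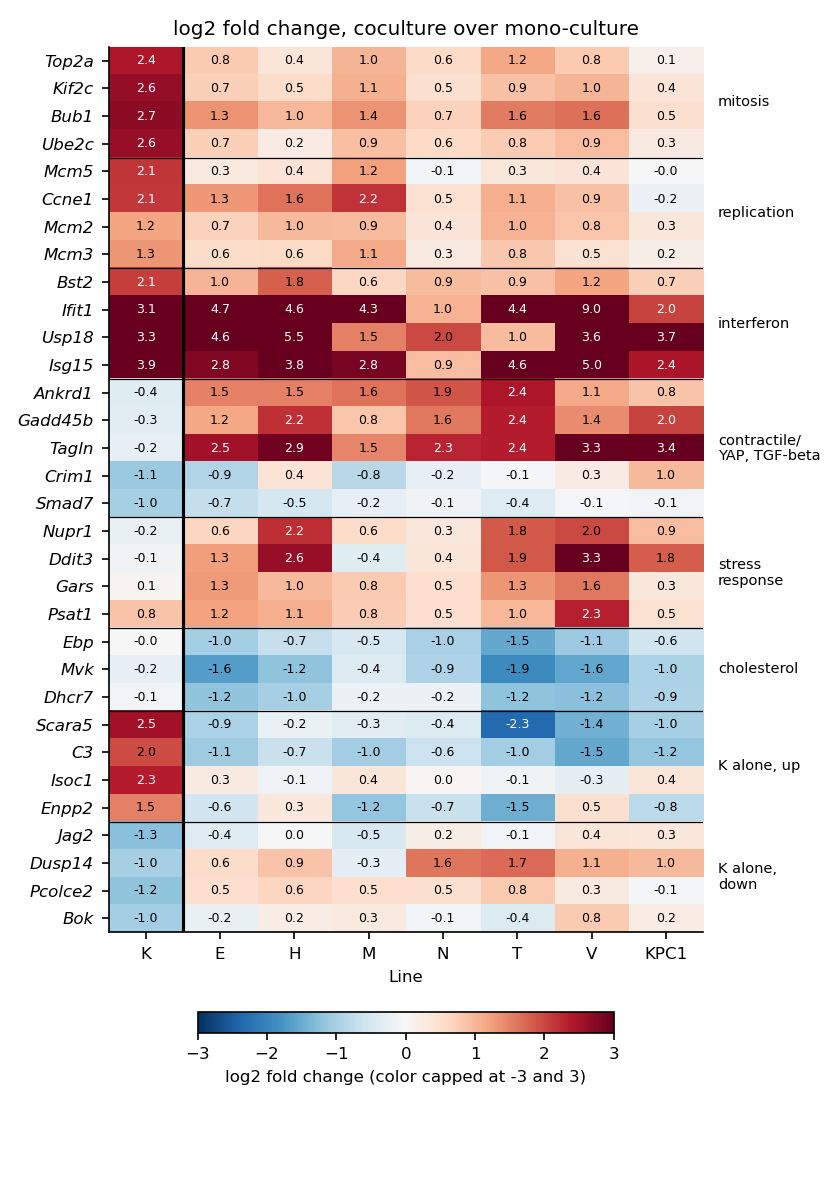
log2 fold change of coculture over mono-culture for 32 genes in rows, in clone K and the 7 other lines in columns, with the value in each cell and the color capped at −3 and 3. Clone K has the highest values for Top2a, Kif2c, Bub1 and Ube2c, values near 0 where Ankrd1, Gadd45b and Tagln are positive in all others, and a positive value for C3 and Scara5 where all others are negative.

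When the line was the replicate, with the response of clone K set against the 7 other responses in limma, 11 genes differed (0.0778% of genes tested) and 926 had an unadjusted p-value under 0.05. No member of any list passed this test. The count was 1 in edgeR on sums over libraries, and 48 with no filter on low counts. C3 was one of the 11 (adjusted p = 0.0694 in limma), 2.98 ± 0.54 above the mean of the others in edgeR. So was Epb4.1l3, which encodes a protein that links membrane receptors to the actin skeleton. It was at 136, 83.2, 114 and 92.3 CPM in K_mono and 69.7, 85.8, 84.1 and 81.7 CPM in K_co, with no change called. In the mono-cultures of the other lines it was at most 0.0162 CPM, and it rose in all 7 by fitted values of 8.55 to 10.26 on the log2 scale, which rest on mono-culture levels at or near 0. Clone K therefore differed in its starting level for this gene.

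The other members of the 11 that have a symbol of a described gene, beside Isoc1, were G6pc3, Ntpcr, Daglb, Rps6ka6, Sgce, Rmi2 and Plekha7, and they were named after their values were seen. All 7 had K_mono means under 0.21 CPM and K_co means between 0.29 and 2.82 CPM. G6pc3, a glucose-6-phosphatase subunit, was at 0, 0.138, 0.201 and 0.417 CPM in K_mono and 1.13, 0.696, 0.721 and 1.3 CPM in K_co. In the mono-cultures of the other lines it ran from 4.32 to 21.2 CPM, and its response there was between −0.06 and 0.18. Sgce, which encodes epsilon-sarcoglycan, was at 0.933 and 1.32 CPM in coculture libraries 1 and 2 and at 3.21 and 5.82 CPM in libraries 3 and 4, where the fibroblast markers were also higher. The part of the fibroblast markers in these rises was not tested.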

How the data were processed

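RNA was sequenced as paired-end, strand-specific polyA libraries from 64 samples. The authors deposited whole-number counts of reads per gene, without normalization, and RPKM values. The submitters' processing notes name featureCounts, edgeR and mm10, and the aligner is not given in the sources used here. Samples were grouped by line and culture in the labels. Counts were analysed in R 4.3.3 with edgeR 4.0.16 (TMM, filterByExpr, quasi-likelihood test, 16 groups, Benjamini-Hochberg adjustment), which kept 14134 genes, and calls used an adjusted p-value under 0.1. CPM values are TMM-normalised, levels of lists are medians of log2(CPM + 0.5), and SE is the log2 fold change over the root of F. The line was the replicate in limma 3.58.1 on 8 responses. Positions of 37693 of 39017 gene identifiers were found in GENCODE M21 (GRCm38), and promoters came from RefSeq. On simulated data, the response test recovered most changes with few false calls. In further simulated data every line, clone K included, had its own deviation of the size of the observed spread. There the difference test mostly called genes with no added change. The test with the line as the replicate missed nearly all of the smaller changes and many of the larger ones. Its share of false calls was above the limit of 0.1. Floors are 3 counts over a group, and intervals cover counting error only.

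Genes were named by a rule: up to 8 each way by p-value in clone K (changed at least 2-fold, at least 5 CPM in the higher group, no overlap), up to 10 each way changed in clone K alone (at least 2 CPM), up to 8 each way also called with the line as the replicate (at least 5 CPM), up to 4 called members per list, and the fibroblast defining markers. Any other gene was picked with its values in view. The members, lists and rules were chosen with earlier results of these data known. Alternatives were DESeq2 1.42.0, RLE, no filter, a replicate block, the index series, limma on log2(RPKM + 1) or log2(RPKM + 0.1), other thresholds, and leaving out libraries or lines. Lists were described by counts and medians, with no set test. Some items are not reported here.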

Additional observations from a re-analysis of the deposited data

Results flagged for a closer look

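Among 182 groups of 4 clone K libraries tested, 13 had 1 library apart from the other 3, measured as its gap to the nearest other library over the range of the group. By chance about 1 in 20 groups shows this. In mono-culture, library 4 had the highest median level of mitosis genes (3.4 log2 CPM), with 10 CPM of Ube2c and 3.48 CPM of Kif2c, and it was also the highest for Itih2 (3.27 CPM), Isoc1 (1.32 CPM) and Selp (12.6 CPM) and the lowest for Daglb, at 0 CPM. Library 3 had the lowest median level of interferon-stimulated genes (0.526 log2 CPM) and held all counts of Postn (0.201 CPM). In coculture, library 4 was the highest for Ifit1 (14.9 CPM) and Ntpcr (0.681 CPM), library 1 the highest for Nupr1 (111 CPM) and library 2 the lowest for Ccl5 (2.44 CPM).

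The response of clone K differed from the mean of the other lines for 4839 genes in edgeR. For C3 the difference was 2.975 on the log2 scale, and for Epb4.1l3 it was −9.879, a fitted value that rests on mono-culture levels at or near 0 in the other lines.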

How the results depend on the processing

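Counts are given here as genes called, with the higher and lower ones in brackets, and for each change below the cause was not tested beyond what fewer libraries or a stricter limit does by its construction. The response of clone K gave 1035 genes (859 and 176) with a log2 fold change of at least 1, 1318 (777 and 541) in the second index series alone, 1173 (799 and 374) without coculture libraries 3 and 4, an alternative added after seeing the data, and 700 lower genes in limma on log2(RPKM + 0.1). The difference from the mean of the other lines gave 630 genes (329 and 301) in the second index series, and 1479 lower genes without coculture libraries 3 and 4. The test against the spread of the other lines, with 11 genes, gave 3 at an adjusted p-value under 0.05, 48 with no filter on low counts, 7 without coculture libraries 3 and 4 and 1 in edgeR on sums over libraries. Genes changed in clone K alone numbered 26 (20 higher) with a limit of 0.25 on the other lines, 145 (122 and 23) with a limit of 1, and 20 (14 higher) without coculture libraries 3 and 4.

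With each clone K library left out in turn, the response ranged from 2130 to 2930 genes (1291 to 1791 higher, 838 to 1139 lower). Leaving out each clone K library or each other line, the difference ranged from 3858 to 5267 genes (2075 to 2801 higher, 1745 to 2624 lower) and the test against the spread from 1 gene (without clone T, and without KPC1) to 17 (without clone M), with 4 genes without coculture library 4, 7 without mono-culture library 1, 3 without clone E or H and 6 without clone N. Genes changed in clone K alone ranged from 30 to 63 (22 to 55 higher, 7 to 15 lower), with 30 without coculture library 4.

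Of the named genes, 106 were called in the response and 103 in the difference. In the second index series 24 and 57 of these calls were lost, without coculture libraries 3 and 4 23 and 15, and with DESeq2 or RLE none. The sign of the difference from the other lines changed for Ifit1 (0.647 and 0.198) and Notch3 (−0.334 and −0.0737) in limma on log2(RPKM + 1) and log2(RPKM + 0.1), and for Mmp2 (0.827) in the latter. With a replicate block, the response gave 3660 genes (2114 and 1546), the difference 5573 (3023 and 2550) and the genes in clone K alone 55, and no named call was lost. Same-numbered K_mono and K_co libraries correlated in their deviations from the group means with r of 0.011, 0.119, 0.129 and 0.236. The first is under the limit of 0.1 set for every pair, so the numbers were not taken as pairs. The sample titles carry a running number that puts each mono-culture library next to the coculture library of the same replicate number. They do not say whether such neighbors were grown or handled together. Over the 8 lines, 30 of 32 same-numbered pairs had an r above 0 and 18 above 0.1. Of the mono-culture libraries, 24 (3 in clone K) correlated best with their own number, and in clone N all r were between 0.23 and 0.291. With the order of the titles this is a hint of pairing, and the main tests did not use it.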
